A study of Mus musculus with 12 samples.

Results

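The 10 genes described here encode enzymes that remove superoxide and peroxides or keep the cell's reducing pools filled. They are the rows for *Sod1*, *Sod2*, *Sod3*, *Cat*, *Gpx1*, *Gpx4*, *Prdx3*, *Nqo1*, *Hmox1* and *Gclm* in a table of 24453 mouse genes. These rows were picked by name, with earlier results of these data known. The study sequenced RNA of 4 mouse embryonic fibroblast (MEF) lines, in 3 cultures per line. It is used here to describe nuclear gene expression after the loss of the mitochondrial RNase PNPase and of mitochondrial DNA (mtDNA). Reads of technical duplicates were merged for each culture, and the merged data of a culture are called a library here. TM6, the parental line, came from embryos of strain C57BL6/J, was immortalized with SV40 large T antigen and had the genotype Pnpt1 neo-flox/neo-flox, a floxed form of the gene for PNPase, without Cre. The rho0 line was TM6 kept for 3 weeks in 750 ng/mL ditercalinium, an agent that depletes mtDNA, and grown from a single-cell colony with PNPase intact. PKO-1 and PKO-6 were TM6 cells exposed to an adenovirus that expresses Cre recombinase, also grown from single-cell colonies. They share the large T antigen with TM6 but not the intact *Pnpt1*, since Cre removed the floxed part of the gene. The study reports that these clones, like rho0, had no mtDNA signal and did not respire. Against TM6, the loss of PNPase and the loss of mtDNA thus come together in both PKO clones. All 4 lines were fed 50 μg/mL uridine, which cells without respiration need to grow. Each of rho0, PKO-1 and PKO-6 is 1 clone, so the spread between libraries is a spread between cultures of that clone, and an effect of the treatment cannot be told apart from a trait of the clone.

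Respiring mitochondria leak electrons onto oxygen and so produce superoxide, which superoxide dismutases turn into hydrogen peroxide. Catalase in peroxisomes, glutathione peroxidases and peroxiredoxins then reduce the peroxide, and the last 2 kinds draw on glutathione and thioredoxin. Several of these genes are switched on by NRF2 (gene *Nfe2l2*), a transcription factor that KEAP1 holds down in unstressed cells and that binds the antioxidant response element, whereas BACH1 represses the same element, at *Hmox1* above all.

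Promoter sequence is shown for 3 of the genes, which do not cover every pattern described below. *Sod1* and *Gclm* were lower in all 3 derived lines, and *Nqo1* was higher in PKO-1 alone among the derived lines. The sequences are the bases just before the transcript start in mouse genome GRCm38, from RefSeq's promoter table (GRCm38.p6), written 5′ to 3′ on the strand of the gene, and capitals mark a match to the core of the antioxidant response element.

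Sod1 (plus strand, chr16:90220512-90220741): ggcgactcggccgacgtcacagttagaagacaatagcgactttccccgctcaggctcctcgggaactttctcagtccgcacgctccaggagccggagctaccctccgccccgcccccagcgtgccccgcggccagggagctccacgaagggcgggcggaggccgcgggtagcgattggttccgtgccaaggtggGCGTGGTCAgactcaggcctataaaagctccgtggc
Gclm (plus strand, chr3:122245307-122245556): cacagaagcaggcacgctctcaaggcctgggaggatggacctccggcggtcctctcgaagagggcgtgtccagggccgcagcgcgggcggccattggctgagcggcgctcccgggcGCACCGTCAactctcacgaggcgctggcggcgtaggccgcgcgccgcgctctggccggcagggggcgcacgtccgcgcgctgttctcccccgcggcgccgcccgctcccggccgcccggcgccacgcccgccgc
Nqo1 (minus strand, chr8:107403206-107403455): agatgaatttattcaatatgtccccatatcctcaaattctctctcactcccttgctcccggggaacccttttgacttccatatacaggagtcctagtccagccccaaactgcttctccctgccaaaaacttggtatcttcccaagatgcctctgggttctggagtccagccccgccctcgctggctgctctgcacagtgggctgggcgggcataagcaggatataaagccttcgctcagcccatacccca

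The element was searched as TGACNNNGC on both strands, and no other motif was searched. It matched on the minus strand in the *Sod1* window, beginning 36 bases before the start, and on the minus strand in the *Gclm* window, beginning 134 bases before it. The *Nqo1* window held no match, which says only that these letters are not in this window. RefSeq's table had windows for 8 of the 10 genes (11 windows, 4 of them for *Gpx4*) and not for *Sod3* and *Hmox1*. A match was found in 2 of the 11 windows, both of them shown here, so the windows shown are not typical of the 11. In all, 4071 of 32851 windows of 300 bases (12.4%) held a match, so these matches are a description of the sequence.

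The libraries held between 47164860 and 67991378 counts (median 55405647), of which 12.2% to 19.6% were *Rn45s*, the ribosomal RNA precursor. Values below are normalized counts, that is, estimated read counts divided by the library's size after TMM scaling and multiplied by the mean library size. All 10 genes were among the 14026 that passed the filter on low counts and entered edgeR's quasi-likelihood test. A gene is called where the Benjamini-Hochberg adjusted p over all 14026 genes was below 0.01 and the absolute log2 fold change above 0.5. *Pnpt1*, the targeted gene, stood at 3131 ± 262 (SD, n = 3) normalized counts in TM6, 5271 ± 230 in rho0, 1240 ± 44.3 in PKO-1 and 1944 ± 250 in PKO-6. Both clones were below TM6 and rho0 was above it, each called, and since these are counts over the whole gene they do not show the deleted exon by itself. Of 11 fibroblast markers, 7 had at least 100 normalized counts in TM6, 6 in rho0, 9 in PKO-1 and 8 in PKO-6, and *Thy1* was below 10 in all 4 lines. The summed fibroblast markers ran from 429026 to 473530 in TM6, 360495 to 380773 in PKO-1, 215848 to 267147 in rho0 and 145377 to 189443 in PKO-6. Most of each sum was *Col1a1*, *Col1a2* and *Vim*, whose means, like that of *Pdgfrb*, were lower in PKO-1 than in TM6. Other fibroblast markers had higher means in PKO-1 than in TM6. These were *Pdgfra* (3225 against 342), *Col3a1* (7011 against 4765), *S100a4* (28584 against 23368), *Dcn* (183 against 25.3), *Lum* (116 against 7.70) and *Fap* (15.7 against 1.83). Their part in the results below was not tested. Of the markers of other cell types, the means of *Ptprc*, *Adgre1* and *Itgam* (leukocytes), *Pecam1* and *Cdh5* (endothelium), *Cdh1* and *Krt5* (epithelium), *Myod1* and *Myog* (skeletal muscle) and all 3 of fat were below 10 in every line. Others were measured and moved with the lines. *Krt18* stood at 242 in TM6, 430 in rho0, 816 in PKO-1 and below 10 in PKO-6, *Epcam* at 88.0 in PKO-6 and at most 8.15 in the other lines, *Kdr* at 142 in PKO-6 and 12.8 to 55.2 elsewhere, and *Cd68* at 91.6 to 186. The summed lists ran over the libraries from 106 to 842 for the 5 epithelial markers, 85 to 212 for the 5 of macrophages and leukocytes, 20 to 177 for the 4 of endothelium and 12 to 82 for the 4 of skeletal muscle. Their part in the results was not tested either. One rho0 library, replicate 1, was the highest of its line in 9 of the 10 genes by normalized count and in 6 of 10 by TPM, the level per transcript length. It also had the largest *Rn45s* share of all libraries, 19.6%, and a TMM factor of 0.936 against 1.04 and 1.02 in the other rho0 libraries.

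Against TM6, more of the 10 genes were called lower than higher in each derived line. In rho0, 6 of 10 were called, all lower, beside 42.1% of all tested genes called in that comparison, 21.4% lower and 20.7% higher. In PKO-1, 6 were called, 5 lower and 1 higher, beside 34.3% of all genes called, 17.9% lower and 16.4% higher. In PKO-6, 7 were called, all lower, beside 41.3% of all genes called, 19.4% lower and 21.9% higher. The median log2 fold change of the 10 genes was -0.55 in rho0, -0.50 in PKO-1 and -0.87 in PKO-6, where the medians of all tested genes were 0.018, 0.001 and 0.014. *Sod1*, *Sod3*, *Gpx1* and *Gclm* were called lower in each of the 3 lines. These 3 comparisons share the TM6 libraries, so their values are set side by side and no overlap between them is tested. Fewer cells that make an RNA and less of it per cell cannot be told apart in these bulk samples. Without rho0 replicate 1, 7 genes were called in rho0, with *Cat* added.

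**Figure D1:**
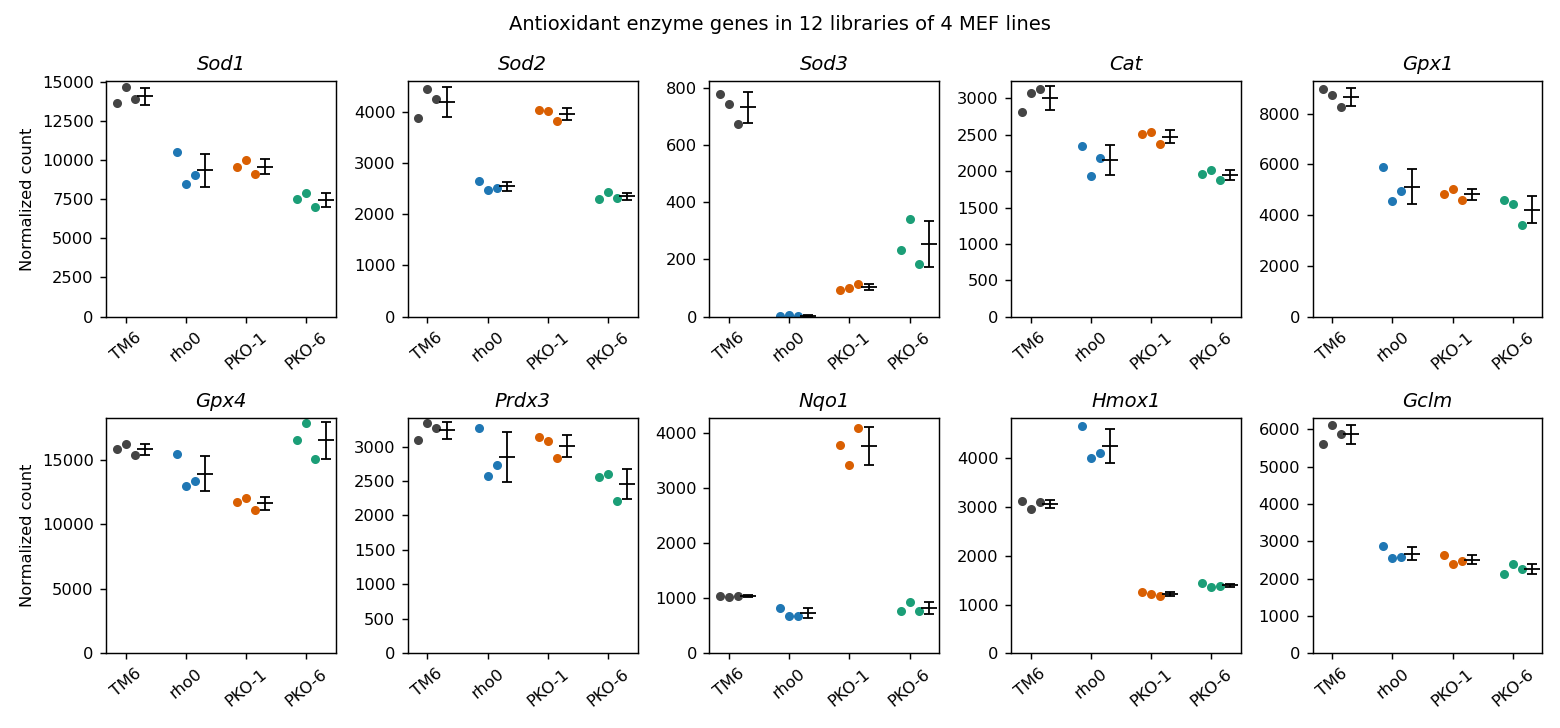
Normalized counts (vertical axis, from 0, scaled per gene) of the 10 antioxidant enzyme genes in the 3 libraries of each line. Points are libraries in the order of replicates 1 to 3, and bars beside them give the mean and SD. *Gclm*, *Gpx1* and *Sod1* are below TM6 in every derived library, *Nqo1* stands at 3415 to 4098 in PKO-1 alone, and *Sod3* lies near 0 in rho0.

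The superoxide dismutases differ in where they act. *Sod1* (chr16:90220742-90226324, 5 exons) encodes the copper-zinc enzyme of the cytosol and the intermembrane space. It stood at 13653, 14664 and 13890 in TM6, 10500, 8493 and 9035 in rho0, 9585, 10033 and 9086 in PKO-1, and 7512, 7904 and 7004 in PKO-6. No library of a derived line reached TM6, and PKO-6 was the lowest line without overlap. The log2 fold change against TM6 was -0.59 ± 0.08 (SE, n = 3 per line, adjusted p = 9.2e-06) in rho0, -0.56 ± 0.08 (adjusted p = 1.99e-05) in PKO-1 and -0.91 ± 0.08 (adjusted p = 1.12e-07) in PKO-6. PKO-1 and rho0 overlapped, and their difference of 0.03 ± 0.08 was not called (adjusted p = 0.706). *Ccs*, which encodes the chaperone that loads copper into SOD1, stood between 657 ± 46.9 in rho0 and 731 ± 47.5 in PKO-1 and was called in none of the 3 comparisons with TM6, with log2 fold changes of -0.12, 0.03 and 0.02.

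*Sod2* (chr17:13007839-13018119, 5 exons) encodes the manganese enzyme of the mitochondrial matrix, the compartment of the respiratory chain and of mtDNA. Its 3 libraries held 3868, 4449 and 4253 normalized counts in TM6, 2646, 2473 and 2505 in rho0, 4032, 4019 and 3819 in PKO-1, and 2297, 2431 and 2318 in PKO-6. These lines thus fell into a high pair, TM6 and PKO-1, whose libraries overlapped, and a low pair, rho0 and PKO-6, with no overlap between the pairs. *Sod2* was lower in rho0 by 1.65-fold (log2 fold change -0.72 ± 0.06, adjusted p = 6.81e-08) and in PKO-6 by 1.78-fold (-0.84 ± 0.06, adjusted p = 1.31e-08), each against TM6. PKO-1 differed from TM6 by -0.08 ± 0.06 and was not called (adjusted p = 0.214). With chromosome medians removed, the values were -0.91 in rho0, -0.31 in PKO-1 and -1.05 in PKO-6. That of PKO-1 (adjusted p = 0.00108) stayed under the fold threshold. The call in rho0 was lost when both PKO clones were pooled into 1 group of the fit, which leaves the log2 fold change at -0.72 and the adjusted p at 0.0218.

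*Sod3* (chr5:52363804-52369738, 2 exons) encodes the secreted dismutase that binds the extracellular matrix, and it had the widest range of the 10 genes. TM6 held 778, 744 and 674 normalized counts, PKO-6 held 233, 342 and 184, PKO-1 held 94.0, 99.0 and 114, and rho0 held 1.94, 5.54 and 2.23. The 4 lines did not overlap, in the order TM6, PKO-6, PKO-1 and rho0, and each step was called. In rho0 the value rests on 9 counts in all against 2355 in TM6, a ratio 231-fold lower, with an exact binomial 95% interval of 121 to 506 that covers counting error only. The same ratio was 7.15-fold lower in PKO-1 (interval 6.32 to 8.12, 282 counts) and 2.94-fold lower in PKO-6 (2.71 to 3.18, 805 counts). The fitted log2 fold changes against TM6 were -7.79 ± 0.32 in rho0 (adjusted p = 9.16e-11), -2.84 ± 0.20 in PKO-1 (adjusted p = 2.4e-08) and -1.54 ± 0.18 in PKO-6 (adjusted p = 3.34e-06).

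Among the enzymes that remove peroxide, *Cat* (chr2:103453904-103485153, minus strand, 13 exons) encodes peroxisomal catalase. It stood at 2819, 3073 and 3131 in TM6, 2345, 1935 and 2186 in rho0, 2509, 2533 and 2368 in PKO-1, and 1962, 2012 and 1875 in PKO-6. All 9 libraries of the derived lines were below all 3 of TM6. Only in PKO-6 did this pass both thresholds (log2 fold change -0.63 ± 0.07, adjusted p = 1.77e-06). The values of -0.48 ± 0.07 in rho0 (adjusted p = 2.41e-05) and -0.28 ± 0.07 in PKO-1 (adjusted p = 0.00223) stayed under the fold threshold. That of rho0 became a call in 6 alternatives, without TM6 replicate 1 (-0.55), rho0 replicate 1 (-0.56) or replicate 3 (-0.51), without PKO-6 replicate 1 or replicate 2 (-0.50 each), and with only the compared lines in the fit (-0.51).

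*Gpx1* (chr9:108339080-108340344, 2 exons) encodes the glutathione peroxidase of cytosol and mitochondria, a selenoprotein. Normalized counts were 8976, 8740 and 8269 in TM6, 5901, 4547 and 4948 in rho0, 4833, 5030 and 4594 in PKO-1, and 4586, 4456 and 3606 in PKO-6. Every derived library was far below TM6, while rho0 and PKO-1 overlapped. The log2 fold change was -0.75 ± 0.10 in rho0 (adjusted p = 1.02e-05), -0.85 ± 0.10 in PKO-1 (adjusted p = 4.33e-06) and -1.04 ± 0.10 in PKO-6 (adjusted p = 4.23e-07). In PKO-1 the other 775 tested genes of chromosome 9 had a median log2 fold change of -0.39 against TM6, and the 64 tested within 1 Mb of *Gpx1* a median of -0.48. With each library's chromosome medians removed, the *Gpx1* value in PKO-1 became -0.45 (adjusted p = 0.000757) and was no longer called. The chromosome 9 medians were 0.04 in rho0 and 0.01 in PKO-6.

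*Gpx4* (chr10:80047166-80056439, overlapping *Bc1* on the other strand) encodes the selenoprotein that reduces lipid hydroperoxides within membranes and so protects cells from ferroptosis. It held 15856, 16240 and 15369 in TM6, 15501, 12955 and 13339 in rho0, 11746, 12065 and 11084 in PKO-1, and 16583, 17910 and 15088 in PKO-6. PKO-1 alone lay below TM6 without overlap, by -0.44 ± 0.08 on the log2 scale (adjusted p = 0.000166), which missed the fold threshold. The values of -0.18 ± 0.08 in rho0 (adjusted p = 0.044) and 0.06 ± 0.08 in PKO-6 (adjusted p = 0.478) were not called either. *Gpx4* is the only one of the 10 genes for which the annotation used holds more than 1 transcript. Of its summed TPM, 97.05% to 99.23% fell on NM_008162.3 in every library. NM_001037741.3, which starts further downstream, took 1.27% ± 0.734 (SD, n = 3) in TM6, 2.24% ± 0.216 in rho0, 1.05% ± 0.376 in PKO-1 and 2.27% ± 0.587 in PKO-6. All 3 rho0 libraries were above those of TM6 and PKO-1 in this share, and PKO-6 overlapped with TM6 and with rho0.

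*Prdx3* (chr19:60864066-60874538, minus strand, 7 exons) encodes the thioredoxin-dependent peroxidase of the mitochondrial matrix and had the narrowest range of the 10. Its values were 3094, 3334 and 3276 in TM6, 3263, 2573 and 2727 in rho0, 3132, 3076 and 2832 in PKO-1, and 2563, 2605 and 2203 in PKO-6. Only PKO-6 lay below TM6 without overlap, at a log2 fold change of -0.40 ± 0.09 (adjusted p = 0.000936), under the fold threshold. Neither rho0 (-0.18 ± 0.09, adjusted p = 0.0753) nor PKO-1 (-0.10 ± 0.09, adjusted p = 0.312) was called. Of the 2 matrix enzymes among the 10, *Sod2* was thus called in 2 of 3 derived lines and *Prdx3* in 0 of 3.

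*Nqo1* (chr8:107388225-107403205, minus strand, 6 exons, overlapping *Mir5098* on the other strand) encodes a quinone reductase that is often read as a marker of NRF2 activity. TM6 held 1048, 1019 and 1048 normalized counts, rho0 828, 675 and 674, PKO-6 762, 939 and 767, and PKO-1 3778, 3415 and 4098. PKO-1 stood far above the other 9 libraries, and rho0 and PKO-6 overlapped each other below TM6. Against TM6, PKO-1 was 3.62-fold higher (log2 fold change 1.86 ± 0.10, adjusted p = 1.44e-09). The value in rho0 was -0.51 ± 0.10 (adjusted p = 0.000375), a call just past the fold threshold that was lost without rho0 replicate 2 or replicate 3 (-0.49 each) and with chromosome medians removed (-0.32). In PKO-6 it was -0.34 ± 0.10 (adjusted p = 0.00725) and not called. The other 738 tested genes of chromosome 8 had a median log2 fold change of -0.43 in PKO-6, -0.18 in rho0 and -0.11 in PKO-1, and with these medians removed the *Nqo1* value in PKO-6 turned to 0.10 (adjusted p = 0.337).

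*Hmox1* (chr8:75093618-75100593, 5 exons) encodes heme oxygenase, which breaks heme down to biliverdin, iron and carbon monoxide, and it was higher in rho0 than in either PKO clone. It stood at 3114, 2963 and 3096 in TM6, 4654, 3993 and 4115 in rho0, 1262, 1206 and 1169 in PKO-1, and 1431, 1366 and 1381 in PKO-6. Every rho0 library was above TM6, and every PKO library was below it. PKO-1 was 2.52-fold lower than TM6 (log2 fold change -1.34 ± 0.06, adjusted p = 3.52e-10) and PKO-6 was 2.19-fold lower (-1.13 ± 0.06, adjusted p = 1e-09). In rho0 the value of 0.48 ± 0.06 (adjusted p = 5.88e-06) was just under the fold threshold, and with chromosome medians removed it was 0.67 and passed. The 3 tested genes within 1 Mb of *Hmox1* had a median of -0.63 in rho0, -0.75 in PKO-1 and -1.20 in PKO-6 against TM6, beside the chromosome 8 medians of -0.18, -0.11 and -0.43 given above. With chromosome medians removed, *Hmox1* stood at -1.23 in PKO-1 and -0.70 in PKO-6 and stayed called in both. Tested directly, both clones were below rho0, PKO-1 by 3.51-fold (log2 fold change -1.81 ± 0.06, adjusted p = 3.75e-11) and PKO-6 by 3.05-fold (-1.61 ± 0.06, adjusted p = 1.28e-10).

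*Gclm* (chr3:122245557-122267215, 7 exons) encodes the modifier subunit of glutamate-cysteine ligase, the enzyme that limits the rate of glutathione synthesis. Its libraries held 5603, 6101 and 5873 in TM6, 2860, 2547 and 2587 in rho0, 2637, 2405 and 2461 in PKO-1, and 2118, 2381 and 2254 in PKO-6. All 3 derived lines lay close together, well below TM6. *Gclm* was 2.20-fold lower in rho0 (log2 fold change -1.14 ± 0.06, adjusted p = 1.81e-09), 2.34-fold lower in PKO-1 (-1.23 ± 0.06, adjusted p = 1.13e-09) and 2.60-fold lower in PKO-6 (-1.38 ± 0.06, adjusted p = 2.12e-10). *Gclc*, the catalytic subunit of the same enzyme, had log2 fold changes of 0.34, -0.34 and -0.19 in the same order and was not called in any of them. It is named here after its values were seen.

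**Figure D2:**
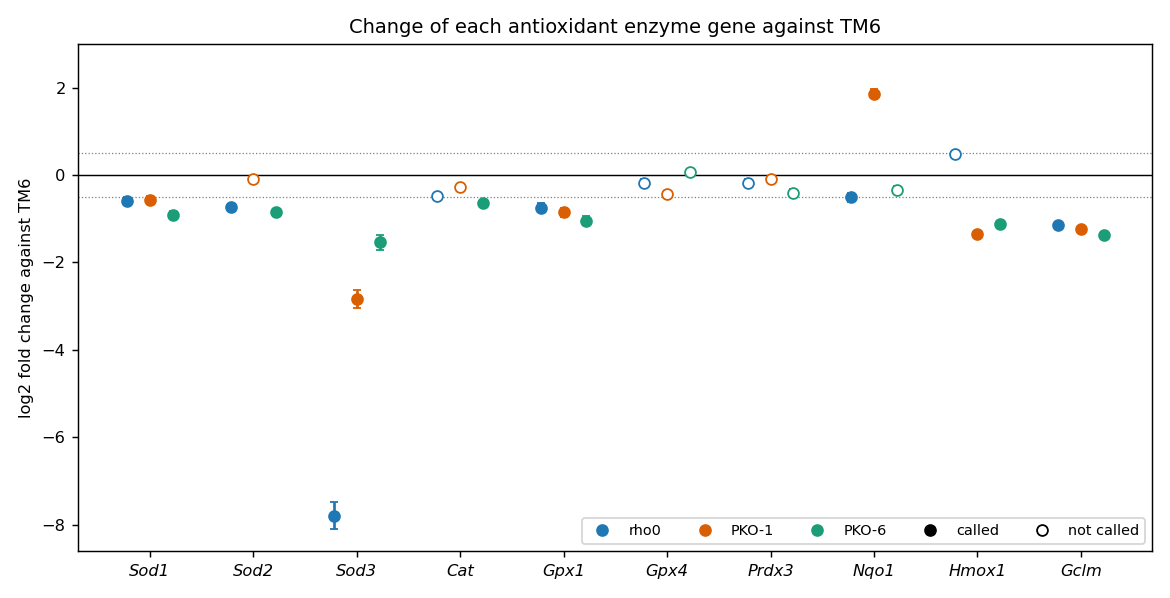
Log2 fold change against TM6 (vertical axis) of the 10 antioxidant enzyme genes (horizontal axis) in rho0, PKO-1 and PKO-6, from the fit over all genes, with bars of 1 SE and dotted lines at the fold threshold of 0.5. Filled points are called, and they include 1 above 0, *Nqo1* in PKO-1 at 1.86, while *Hmox1* is at 0.48 in rho0, -1.34 in PKO-1 and -1.13 in PKO-6.

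Between themselves, the PKO clones differed in 4 of the 10 genes, beside 29.1% of all tested genes called between them, 11.5% higher in PKO-1 and 17.6% lower. *Nqo1* was 4.58-fold higher in PKO-1 than in PKO-6 (log2 fold change 2.20 ± 0.10, adjusted p = 3.92e-10) and *Sod2* 1.68-fold higher (0.75 ± 0.06, adjusted p = 7.45e-08). *Sod3* was 2.46-fold lower in PKO-1 (-1.30 ± 0.20, adjusted p = 6.35e-05) and *Gpx4* 1.42-fold lower (-0.51 ± 0.08, adjusted p = 5.98e-05). The *Gpx4* call rests on single libraries, since it was -0.47 without PKO-1 replicate 3 and -0.44 without PKO-6 replicate 2, and on the chromosome, since it was -0.30 with chromosome medians removed. None of the 10 genes overlapped between the clones, where 66.5% of all tested genes did not overlap. In PKO-1, 7 of them lay above PKO-6 and 3 below, beside 33.0% and 33.5% of all genes. With both clones in 1 group of 6 libraries, the gap between clones counts as spread, and 5 genes were called against TM6, all lower, beside 25.7% of all genes called, 12.2% lower and 13.5% higher. These were *Sod1* (log2 fold change -0.72 ± 0.11, adjusted p = 0.000275), *Sod3* (-2.04 ± 0.37, adjusted p = 0.000833), *Gpx1* (-0.94 ± 0.10, adjusted p = 1.86e-05), *Hmox1* (-1.23 ± 0.08, adjusted p = 2.36e-07) and *Gclm* (-1.30 ± 0.07, adjusted p = 8.99e-08). *Nqo1* was not called in the pooled group, at 1.14 ± 0.58 (adjusted p = 0.122).

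Set against rho0, the line that lost mtDNA without a *Pnpt1* deletion, PKO-1 was called in 4 of the 10 genes, beside 32.7% of all tested genes called, 15.1% higher and 17.6% lower. *Sod2* (log2 fold change 0.64 ± 0.06, adjusted p = 3.84e-07), *Sod3* (4.95 ± 0.38, adjusted p = 8.48e-08) and *Nqo1* (2.37 ± 0.10, adjusted p = 2.57e-10) were higher in PKO-1, and *Hmox1* was lower. PKO-6 was called in 2 of 10, beside 21.5% of all genes called, 13.3% higher and 8.16% lower, with *Sod3* higher (6.26 ± 0.34, adjusted p = 5.43e-09) and *Hmox1* lower. The fitted values for *Sod3* rest on the 9 counts of rho0. The 2 calls that both clones shared in direction against rho0 were therefore *Sod3* and *Hmox1*, and both comparisons use the same rho0 libraries. *Gclm* differed from rho0 by -0.09 ± 0.06 in PKO-1 (adjusted p = 0.208) and by -0.24 ± 0.06 in PKO-6 (adjusted p = 0.00489), neither called.

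Levels of different genes can be compared only per transcript length, in TPM. *Sod1* had the highest TPM of the 10 in TM6, with a mean of 920, and *Gpx4* came next with 618. *Gpx1* followed at 304, *Gclm* at 94.0, *Prdx3* at 77.7 and *Hmox1* at 66.5. *Cat* (38.5), *Sod2* (34.8), *Nqo1* (23.0) and *Sod3* (11.9) were the lowest. In PKO-6, *Gpx4* at a mean of 618 TPM stood above *Sod1* at 467, whereas in PKO-1 *Sod1* at 599 stood above *Gpx4* at 434. *Nqo1* rose in that order from the ninth place in TM6 to a mean of 79.8 TPM in PKO-1, above *Prdx3* at 69.1, and *Hmox1* had 90.9 TPM in rho0 against 25.2 and 29.2 in PKO-1 and PKO-6. *Sod3* had a mean of 0.0533 TPM in rho0.

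**Figure D3:**
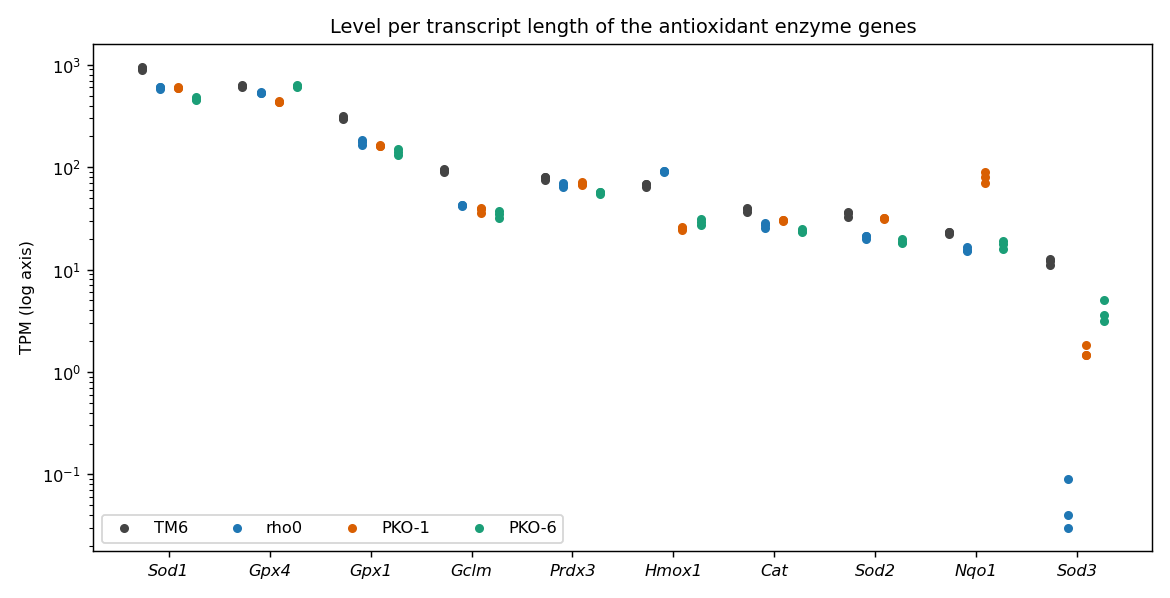
TPM on a log axis (vertical) of the 10 genes (horizontal), ordered by their mean in TM6, with 1 point per library and 3 per line. *Sod1*, *Gpx4* and *Gpx1* are above 100 TPM in all 12 libraries, and *Sod3* in rho0 is below 0.1 TPM.

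Across the 12 libraries, *Sod1*, *Cat*, *Gpx1* and *Gclm* ran together in log2 CPM (Pearson r from 0.86 for *Cat* with *Gclm* to 0.97 for *Sod1* with *Gpx1*), while *Nqo1* and *Gpx4* ran opposite to each other (r = -0.72). These values describe 12 libraries of 4 lines that share their parent, and they carry no test. The range between line means of log2 normalized counts was widest in *Sod3* (7.74), *Nqo1* (2.38) and *Hmox1* (1.81) and narrowest in *Gpx4* (0.50) and *Prdx3* (0.40). Over all tested genes, those most correlated with *Sod3* were *Gm7694* (r = 0.989), *Hoxa11os* (r = 0.988) and *S1pr1* (r = 0.987). For *Nqo1* they were *Tbx5* (r = 0.989), *Erlin2* (r = 0.988) and *Efnb2* (r = 0.986), and for *Hmox1* they were *Pcdh7* (r = 0.987), *Fkbp15* (r = 0.987) and *Gapvd1* (r = 0.979).

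The regulators of the NRF2 pathway were measured beside their targets. *Nfe2l2* RNA stood at 3753 ± 191 in TM6, 3892 ± 7.94 in rho0, 4643 ± 198 in PKO-6 and 5242 ± 181 in PKO-1. Its log2 fold changes against TM6 were 0.05 in rho0 (adjusted p = 0.371), 0.48 in PKO-1 (adjusted p = 1.94e-06) and 0.31 in PKO-6 (adjusted p = 0.000107). All were under the fold threshold and not called. Every library of both PKO clones was above TM6, while rho0 overlapped it. *Keap1*, the inhibitor of NRF2, was called lower in all 3 lines, by -0.55 ± 0.07 in rho0 (adjusted p = 5.86e-06), -0.70 ± 0.07 in PKO-1 (adjusted p = 6.55e-07) and -0.69 ± 0.07 in PKO-6 (adjusted p = 5.24e-07). *Bach1* was called lower in PKO-6 (-0.54 ± 0.04, adjusted p = 6.28e-08), at -0.47 in rho0 and -0.26 in PKO-1. *Sqstm1*, whose protein p62 binds KEAP1, rose in rho0 (0.91 ± 0.07, adjusted p = 7.35e-08) and fell in PKO-1 (-0.61 ± 0.07, adjusted p = 4.85e-06), with 0.30 in PKO-6. *Maff*, a small partner of NRF2 and BACH1, fell in rho0 (-0.83) and PKO-1 (-0.79), and *Rbx1*, a subunit of the ligase that degrades NRF2, fell in rho0 (-0.68). Of the 10 genes listed for NRF2 control, 2 rose and 3 fell in rho0, 0 rose and 3 fell in PKO-1, and 0 rose and 2 fell in PKO-6, beside 42.1%, 34.3% and 41.3% of all tested genes called in the 3 comparisons. The shares of all genes called higher were 20.7%, 16.4% and 21.9%, and those called lower 21.4%, 17.9% and 19.4%, and the same shares stand behind each list that follows.

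Of 17 tested NRF2 targets outside the 10 genes and the glutathione and thioredoxin lists, 2 rose and 3 fell in rho0, 6 rose and 3 fell in PKO-1, and 5 rose and 4 fell in PKO-6, beside 42.1%, 34.3% and 41.3% of all tested genes called in the 3 comparisons. The median log2 fold changes were -0.11, 0.42 and -0.07. *Osgin1* fell in each line (-1.48 ± 0.15, -1.35 ± 0.14 and -1.51 ± 0.14 in rho0, PKO-1 and PKO-6, adjusted p at most 2.09e-06). The aldehyde oxidase *Aox1* rose in each (0.79 ± 0.15, 0.81 ± 0.15 and 0.95 ± 0.15, adjusted p at most 0.000296). *Ephx1*, microsomal epoxide hydrolase, rose in PKO-1 (0.81 ± 0.06) and PKO-6 (0.93 ± 0.06) and stood at -0.35 in rho0. *Abcc4*, an export pump, rose in rho0 (0.87 ± 0.04) and PKO-6 (0.70 ± 0.04), with 0.36 in PKO-1.

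Of 18 tested genes of glutathione synthesis and reduction, 4 rose and 8 fell in rho0, 3 rose and 7 fell in PKO-1, and 6 rose and 8 fell in PKO-6, beside 42.1%, 34.3% and 41.3% of all tested genes called in the 3 comparisons. The medians were -0.18, -0.25 and -0.21. *Slc7a11*, the importer of cystine, rose in all 3 lines (1.54 ± 0.07 in rho0, 1.23 ± 0.07 in PKO-1 and 1.66 ± 0.07 in PKO-6, adjusted p at most 2.2e-09), and so did *Chac1*, which degrades glutathione (1.98 ± 0.09, 0.71 ± 0.09 and 2.59 ± 0.09, adjusted p at most 9.71e-06). Both are also known targets of the amino acid and stress factor ATF4. *G6pdx*, which feeds NADPH to the pathway, fell in all 3 (-2.02 ± 0.07, -1.56 ± 0.07 and -1.82 ± 0.07, adjusted p at most 2.79e-10), as did *Gsr*, glutathione reductase (-1.02 ± 0.06, -0.75 ± 0.06 and -1.67 ± 0.07, adjusted p at most 2.01e-07).

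Among 15 tested glutathione peroxidases and transferases other than the 10 genes, 1 rose and 9 fell in rho0, 5 rose and 4 fell in PKO-1, and 2 rose and 6 fell in PKO-6, beside 42.1%, 34.3% and 41.3% of all tested genes called in the 3 comparisons. The medians were -0.75, 0.39 and -0.24. *Mgst1*, a microsomal transferase, held 293 ± 24.7 normalized counts in TM6, 152 ± 13.6 in PKO-6, 8.33 ± 1.22 in PKO-1 and 1.07 ± 1.12 in rho0, an order of the lines like that of *Sod3*. *Gstz1* rose in all 3 lines (1.45 ± 0.05 in rho0, 0.97 ± 0.05 in PKO-1 and 1.13 ± 0.05 in PKO-6). *Gstm1* fell in rho0 (-1.21 ± 0.07) and PKO-6 (-0.69 ± 0.07), with 0.39 in PKO-1, and *Gsto1* rose in PKO-1 (0.75 ± 0.08) and PKO-6 (1.14 ± 0.08), with 0.45 in rho0. Counts can be split between near-identical members of the transferase families, so values for *Gstm1* are uncertain to that extent.

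The partners of *Prdx3* in the peroxiredoxin and thioredoxin systems showed 2 genes higher and 6 lower of 18 in rho0, 4 higher and 3 lower in PKO-1, and 4 higher and 6 lower in PKO-6, beside 42.1%, 34.3% and 41.3% of all tested genes called in the 3 comparisons. The medians were -0.16, -0.04 and -0.05. *Prdx4*, the peroxiredoxin of the endoplasmic reticulum, fell in each line (-1.08 ± 0.06, -0.89 ± 0.06 and -1.22 ± 0.06 in rho0, PKO-1 and PKO-6), and so did nucleoredoxin, *Nxn* (-1.01 ± 0.09, -0.53 ± 0.09 and -1.18 ± 0.09). *Msra*, which repairs oxidized methionine, rose in each (0.99 ± 0.10, 0.83 ± 0.10 and 0.76 ± 0.10). *Txnip*, which binds and inhibits thioredoxin, rose in PKO-1 (0.86 ± 0.09) and PKO-6 (1.30 ± 0.09), with 0.27 in rho0.

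For the sources of superoxide and the delivery of copper, 2 of 12 genes rose and 6 fell in rho0, 3 rose and 5 fell in PKO-1, and 2 rose and 6 fell in PKO-6, beside 42.1%, 34.3% and 41.3% of all tested genes called in the 3 comparisons. The medians were -0.39, -0.40 and -0.32. *Xdh*, xanthine dehydrogenase, rose in all 3 lines, from 229 ± 9.82 normalized counts in TM6 to 680 ± 43.5 in rho0, 2397 ± 142 in PKO-1 and 1977 ± 40.9 in PKO-6. *Nox4*, an NADPH oxidase that yields hydrogen peroxide, fell in all 3 (-0.69 ± 0.18, -1.38 ± 0.19 and -1.79 ± 0.19). *Cyba*, the p22phox subunit that NOX4 needs, held 750 ± 67.1 normalized counts in TM6, 259 ± 28.0 in rho0 and 483 ± 9.33 in PKO-1 but 0.891 ± 0.828 in PKO-6. *Noxo1* rose in each line (1.72 ± 0.17, 1.23 ± 0.17 and 1.40 ± 0.17).

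Around *Hmox1*, 3 of 14 genes of heme turnover rose and 3 fell in rho0, 3 rose and 4 fell in PKO-1, and 2 rose and 4 fell in PKO-6, beside 42.1%, 34.3% and 41.3% of all tested genes called in the 3 comparisons. The medians were -0.04, 0.05 and -0.18. *Cpox* (1.74 ± 0.06, 0.74 ± 0.06 and 1.48 ± 0.06) and *Uros* (0.87 ± 0.09, 0.78 ± 0.09 and 1.07 ± 0.09), which make porphyrins, rose in all 3 lines. *Abcb10*, a transporter of the inner mitochondrial membrane (-0.99 ± 0.06, -0.84 ± 0.06 and -1.43 ± 0.06), and *Blvra*, which reduces the biliverdin that HMOX1 makes (-0.69 ± 0.09, -0.64 ± 0.09 and -1.02 ± 0.10), fell in all 3. *Blvra* fell in rho0 as well, where *Hmox1* was above TM6.

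The machinery that makes selenoproteins such as GPX1 and GPX4 showed 2 genes higher and 1 lower of 10 in rho0, and 1 higher and 2 lower in each PKO clone, beside 42.1%, 34.3% and 41.3% of all tested genes called in the 3 comparisons. The medians were 0.13, 0.00 and -0.14. *Lrp8*, the receptor that takes up selenoprotein P, fell in all 3 lines (-0.94 ± 0.06, -1.14 ± 0.06 and -0.97 ± 0.06 in rho0, PKO-1 and PKO-6). *Secisbp2*, which binds the selenocysteine insertion element, fell in PKO-1 (-0.71 ± 0.07), and *Eefsec*, the elongation factor for selenocysteine, rose in rho0 (0.63 ± 0.07). Of the 12 tested peroxisome genes listed as partners of catalase, 3 rose and 3 fell in rho0, 1 rose and 2 fell in PKO-1, and 4 rose and 3 fell in PKO-6, beside the same shares of all genes, with medians of 0.03, -0.21 and 0.02. *Pex5*, the import receptor for catalase, fell in rho0 (-0.73 ± 0.08), with -0.45 in PKO-1 and -0.41 in PKO-6. Of 2 tested metallothioneins, *Mt1* fell in all 3 lines (-0.89 ± 0.11, -0.70 ± 0.11 and -0.52 ± 0.11) and *Mt2* rose in PKO-6 (0.87 ± 0.12), with 0.18 in rho0 and -0.40 in PKO-1.

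**Figure D4:**
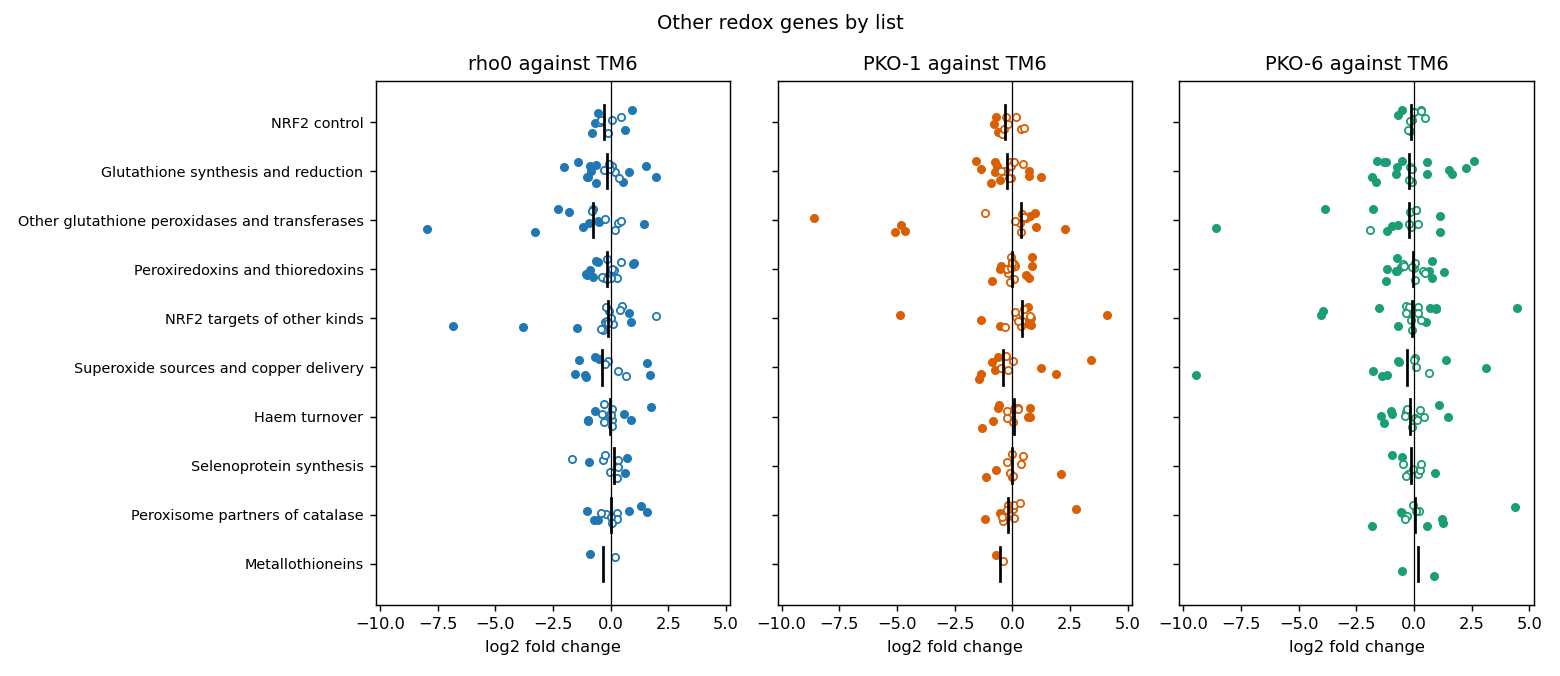
Log2 fold change against TM6 (horizontal axis, the same in the 3 panels for rho0, PKO-1 and PKO-6) of the tested genes of 10 redox lists (vertical axis), 1 point per gene, filled where called, with a black bar at each list's median. The list medians lie between -0.75 and 0.42, and the medians of all tested genes are 0.018, 0.001 and 0.014.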

How the data were processed

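The authors deposited expected counts, which are RSEM's estimates and are not normalized, and TPM for each transcript in each of 12 libraries. These libraries kept strand and were made after removal of ribosomal RNA, in technical duplicates whose reads the authors merged. The transcripts were those of RefSeq on the mouse build mm10 (GRCm38), and expected counts were collapsed to genes in 1 table. The submitters' processing notes name RSEM 1.2.25, Bowtie2 and DESeq2 1.18.1. The percent of a gene's transcripts per isoform, also deposited by the authors, came from the same RSEM output. RNA was extracted with one of a pair of kits, and which library had which is not given in the sources used here. The values hold 0 entries encoded by mtDNA.

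Since 12.5% of the gene values were not whole, they were rounded. edgeR 4.0.16 in R 4.3.3 was run with filterByExpr (minimum count 10, 14026 genes left), TMM, and glmQLFit and glmQLFTest in 1 fit of 4 lines, with a separate fit of 3 groups for the pooled PKO clones. In each of the 7 comparisons p was adjusted by Benjamini-Hochberg over every tested gene. The SE was taken as the absolute log2 fold change over the root of its F statistic. TPM were summed over a gene's transcripts, and the prior count of log2 CPM was 2. Samples were grouped by their labels, which call the cultures biological replicates. No pair of libraries in a line had the same values.

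The 10 genes, and the 10 redox lists and 6 marker lists compiled by hand, were chosen with earlier results of these data known. Genes named from a list are up to 4 whose normalized counts averaged 100 or more, ranked by the size of their log2 fold change if called in rho0, PKO-1 or PKO-6 against TM6. *Pnpt1*, *Nfe2l2*, *Keap1*, *Bach1*, *Ccs*, the genes of lists with 5 or fewer measured, and the 3 genes most correlated with each of the 3 widest ranging members may be named too. *Trim16l* of the lists matched no row. One gene that this rule admits is not reported here. Alternatives were DESeq2 1.42.0's size factors and Wald test, no filter, a replicate block, the compared lines alone, other thresholds, removal of chromosome medians, another grouping of the clones, and leaving out every library once. Library totals in place of TMM were added after the data were seen, because 1 rho0 library was the highest of its line in most members. The test was tried on simulated data. Sequences are RefSeq's (GRCm38.p6).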

Additional observations from a re-analysis of the deposited data

Results flagged for a closer look

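The PKO clones, made by the same treatment of the same parent, differed in 4 of the 10 genes by the direct test between them (edgeR's quasi-likelihood test, n = 3 libraries per clone). *Nqo1* differed by a log2 fold change of 2.20 ± 0.10 (adjusted p = 3.92e-10), higher in PKO-1, with 1.86 in PKO-1 against TM6 and -0.34 in PKO-6, a value that was not called and turned to 0.10 (adjusted p = 0.337) with chromosome medians removed. *Sod2* differed by 0.75 ± 0.06 (adjusted p = 7.45e-08), with PKO-6 below TM6. PKO-1 overlapped TM6 and was not called against it, at -0.08, or -0.31 with chromosome medians removed. *Sod3* differed by -1.30 ± 0.20 (adjusted p = 6.35e-05), both clones being below TM6 and PKO-1 the lower. *Gpx4* differed by -0.51 ± 0.08 (adjusted p = 5.98e-05), a value just past the fold threshold.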

How the results depend on the processing

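Of 1350 single-gene log2 fold changes under alternatives, 1323 kept their direction and their side of the thresholds. Of the rest, 9 lost a call, 12 gained one and 6 changed sign. Each gene and comparison had 19 or 20 of the 23 alternatives. The other thresholds, whose counts are given below, were not among them. The sign changes all concerned values without a call. Removing chromosome medians gave 0.31 for *Gpx1* and -0.07 for *Sod1* in PKO-1 against rho0, and 0.10 for *Nqo1* in PKO-6 against TM6. *Gpx1* in PKO-1 against rho0 was 0.01 without rho0 replicate 1, *Sod1* in the same comparison -0.04 without rho0 replicate 2, and *Gpx4* in PKO-6 against TM6 -0.03 without PKO-6 replicate 2. Over all libraries left out in turn, these 3 values ran from -0.18 to 0.01, -0.04 to 0.11 and -0.03 to 0.12. Calls gained with chromosome medians removed were *Gpx1* (0.56) and *Hmox1* (-0.53) in PKO-1 against PKO-6, *Hmox1* in rho0 against TM6 (0.67) and *Gclm* in PKO-6 against rho0 (-0.53). With 4 lines and the mean of both clones in place of 1 pooled group, *Nqo1* in PKO against TM6 was 0.76 (adjusted p = 2.7e-06) and called, while the 3-group fit put *Nqo1* in rho0 at -0.52 (adjusted p = 0.519), with no call. As stated above, the 3-group fit counts the gap between the clones as spread. The cause of the other changes was not tested.

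Raising the fold threshold to 1 left 2 of the 10 genes in rho0, 4 in PKO-6 and 3 in the pooled PKO group against TM6, and 2 between the clones. Over all genes it left 2944, 2274, 3038 and 1788 in rho0, PKO-1, PKO-6 and pooled PKO against TM6, 1950 between the clones, and 2202 and 1510 in PKO-1 and PKO-6 against rho0. Without a fold threshold, 7 of the 10 were called between the clones and 4 in PKO-6 against rho0, and 7611, 7014, 7561 and 5704 genes in PKO-1 against TM6, between the clones, and in PKO-1 and PKO-6 against rho0. Such moves follow from the thresholds themselves.

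Leaving out each library in turn, 5 to 7 of the 10 genes were called in rho0, 6 in PKO-1, 7 in PKO-6 and 5 to 6 in the pooled group against TM6, 3 to 4 between the clones, and 4 and 2 in PKO-1 and PKO-6 against rho0. Over all genes the counts were 5604 to 6299, 4597 to 4888, 5657 to 5962, 2874 to 3712, 3820 to 4178, 4150 to 4908 and 2713 to 3399 in the same order. With the replicate number as a block, 5849 genes were called in rho0 against TM6, and the block changed no call of the 10 genes and moved no count by over 1.5 times. The numbers did not pair the samples, since same-numbered libraries correlated from -0.39 to 0.25 over 18 pairs, 10 of them over 0.1, and 4 of 12 libraries matched their own number best. Under the other scalings the median log2 fold change of all genes was at most 0.070 in size. Depth limits *Sod3* in rho0 to 9 counts.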
